A study of Mus musculus with 4 samples.

Results

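The Fc gamma receptors are the receptors by which leukocytes bind IgG. The 5 genes described here are the activating receptors Fcgr1 (CD64), Fcgr3 (CD16) and Fcgr4 (CD16-2), the inhibitory receptor Fcgr2b (CD32b), and Fcer1g, which encodes the common gamma chain that the activating receptors need for surface expression and signalling. They were chosen by name, are 5 of the 16308 genes in the count tables, and were read in 1674, 1768, 1315 and 1042 cells of 4 single-cell libraries (5799 cells in all). The libraries hold CD45+ cells, that is leukocytes, sorted from the muscularis of the small intestine after intestinal manipulation, a surgical handling of the gut that starts inflammation of the muscle layer. Of these, 1 library came from C57BL/6J wild-type (WT) mice at 24 h after injury and 1 at 72 h, and 1 library each at 24 h and 72 h came from CCR2 KO mice (B6.129S4-Ccr2tm1Ifc/J), which carry a germline Ccr2 deletion in all their cells. All mice were 12 weeks old and all had been operated on, so the libraries described here hold no unmanipulated control, and each pooled cells of several mice. With 1 library a group no spread between mice can be measured, so every comparison sets 1 library against another and has no test.

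Fc gamma receptors are read as a balance. Immune complexes that cross-link Fcgr1, Fcgr3 or Fcgr4 lead to phosphorylation of the ITAM motifs in the gamma chain by Src-family kinases and to recruitment of Syk, which drives phagocytosis, oxidative burst and cytokine release. Fcgr2b carries an ITIM motif in its own tail, recruits the lipid phosphatase SHIP1 (Inpp5d) and dampens the same signal. Macrophages and monocytes are known to carry all of the receptors, neutrophils mainly Fcgr3, Fcgr4 and Fcgr2b, NK cells Fcgr3, and B cells only Fcgr2b, while most T cells carry none.

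In the GRCm38 annotation, 4 of the genes lie on chromosome 1 within 1 receptor-rich region: Fcgr2b at 170958617 to 170976547 (minus strand), Fcgr4 at 171018920 to 171029761 (plus strand), Fcgr3 at 171051174 to 171064935 (minus strand) and Fcer1g at 171229572 to 171234365 (minus strand). Fcgr1 lies apart, on chromosome 3 at 96282909 to 96293969 (minus strand). The 100 bases before a RefSeq transcription start of each gene (GRCm38.p6) are shown because members that share a cell type can be compared for the core GAGGAA, the purine-rich sequence bound by the myeloid factor PU.1 (Spi1). Each is written 5′ to 3′ on the strand of its gene, and capitals mark that core, which here always stands as its reverse complement TTCCTC.
Fcgr1, chr3:96293970-96294069, minus strand: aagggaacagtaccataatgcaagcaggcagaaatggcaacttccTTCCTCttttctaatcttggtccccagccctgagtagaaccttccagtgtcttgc
Fcgr3, chr1:171059404-171059503, minus strand: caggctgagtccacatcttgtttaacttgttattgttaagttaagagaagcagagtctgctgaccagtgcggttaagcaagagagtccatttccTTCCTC
Fcgr4, chr1:171018826-171018925, plus strand: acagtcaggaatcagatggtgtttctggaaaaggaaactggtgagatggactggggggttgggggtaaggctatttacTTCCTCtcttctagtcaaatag
Fcgr2b, chr1:170976072-170976171, minus strand: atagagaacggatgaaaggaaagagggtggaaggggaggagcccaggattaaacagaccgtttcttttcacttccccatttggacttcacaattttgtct
Fcer1g, chr1:171234350-171234449, minus strand: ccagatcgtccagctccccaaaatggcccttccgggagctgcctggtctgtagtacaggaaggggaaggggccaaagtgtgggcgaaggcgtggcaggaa

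Each activating receptor had 1 match, which ended 49 bases before the start in Fcgr1, 0 bases before it in Fcgr3 and 16 bases before it in Fcgr4. Fcgr2b and Fcer1g had 0 matches in these 100 bases and 0 in the 250 bases before the start. Searched on both strands, the core stood in 9.76% of all 27025 RefSeq mouse promoters over 100 bases and in 23.1% over 250 bases. The run TTCCTTCCTC, 10 bases long and shared by Fcgr1 and Fcgr3, stood in 40 of them (0.148%). That run was picked as the longest that Fcgr1 and Fcgr3 share here, so its share does not measure how often 2 promoters share a run of this length. No other motif was searched. Fcgr3 has 2 listed starts. The bases shown for Fcgr3 and for Fcgr2b lie inside the annotated genes, and those of Fcgr4 and Fcer1g overlap theirs in part. A match describes letters, not an occupied site.

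The libraries differed in depth. Total UMIs (unique molecular identifiers, which count captured RNA molecules) were 21206308 in WT at 24 h, 10411709 in CCR2 KO at 24 h, 16600493 in WT at 72 h and 9620609 in CCR2 KO at 72 h, and medians per cell ran from 3282.5 to 12859. The median share of mitochondrial UMIs was lowest in CCR2 KO at 24 h, at 0.469%, and highest in WT at 72 h, at 4.05%. Ptprc, which encodes CD45, had a UMI in 92.1% to 96.5% of cells of a library. Ccr2, the deleted gene, stood in monocyte/macrophage-like cells at 754 CPM in WT at 24 h and 1066 at 72 h, and at 97.2 and 83.7 CPM in CCR2 KO, where CPM is the number of UMIs of a gene for every 1000000 UMIs summed over the cells of a class. Any 2 libraries shared at most 1 cell barcode. Classes were rebuilt from marker genes by clustering without the 5 receptor genes and Ccr2, so they are not the study's own annotation, and 137 cells with UMIs of markers of more than 1 lineage were set aside. The classes of most cells were monocyte/Mφ-like (2412 cells), neutrophil-like (1906), Siglecf-high granulocytes (516) and dendritic cell-like (445), beside T cell-like (187), NK cell-like (81), B cell-like (66) and innate lymphoid cell-like cells (44). The Siglecf-high granulocytes are named by their leading gene because their summed neutrophil markers came to 25917 CPM and their summed eosinophil markers to 558, with the eosinophil genes Il5ra and Prg2 at 0. Monocyte/Mφ-like cells held all 18 of their markers above 20 CPM, neutrophil-like cells all 10 and dendritic cell-like cells all 10. The same lists had named the classes. Dendritic cell-like cells also held 15 of the 18 monocyte/macrophage markers, which summed to 5434 CPM beside 1990 for their own. Neutrophil-like cells held 8 of the 18 (5232 CPM), and monocyte/Mφ-like cells held 7 of the 10 neutrophil markers (600 CPM).

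Since the assay counts 1 end of each transcript, levels of different genes were compared without correction for length. Parentheses after a value hold its exact 95% interval (Poisson for levels), which covers counting error only and not the spread between mice.

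Fcgr1, the only high-affinity IgG receptor of the family, was highest in monocyte/Mφ-like cells. Pooled over the libraries it stood there at 620.4 (612 to 629) CPM, with libraries from 325 to 749. Dendritic cell-like cells followed at 94.2 (88.3 to 101) CPM, then neutrophil-like cells at 31.9 (27.6 to 36.6) and Siglecf-high granulocytes at 24.3 (16.9 to 33.8). The last pair of intervals overlapped, so these classes were not separated beyond counting error. In T, B, NK and innate lymphoid cell-like cells Fcgr1 did not exceed 3.89 CPM.

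Fcgr3, the low-affinity activating receptor, was shared between the phagocytes. It stood at 928 (904 to 952) CPM in neutrophil-like cells, with libraries from 806 to 973. Monocyte/Mφ-like cells were at 796 (787 to 806) CPM, with libraries from 562 to 951, so the library ranges of these neighbours overlapped while their pooled intervals did not. Siglecf-high granulocytes had 604 (565 to 646) CPM and dendritic cell-like cells 175 (167 to 184) CPM. Among lymphocytes, innate lymphoid cell-like cells at 112 (78.2 to 156) CPM and NK cell-like cells at 89.5 (65.5 to 119) CPM carried it and their intervals overlapped. T cell-like cells had 2.65 CPM, and the 66 B cell-like cells held 0 UMIs, which allows up to 4.997 CPM.

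Fcgr4, which binds IgG2a and IgG2b, was similar in the main phagocyte classes. Neutrophil-like cells had 249.5 (237 to 262) CPM and monocyte/Mφ-like cells 234 (229 to 239) CPM, and the intervals overlapped. Siglecf-high granulocytes at 93.8 (78.7 to 111) CPM and dendritic cell-like cells at 23.997 (21.02 to 27.3) CPM were lower. NK and innate lymphoid cell-like cells held 0 UMIs, which allows up to 5.84 and 9.63 CPM.

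Fcgr2b, the inhibitory receptor, followed another order. It stood at 783 (774 to 792) CPM in monocyte/Mφ-like cells, where libraries ran from 414 to 1023. Neutrophil-like cells had 328 (314 to 343) CPM and dendritic cell-like cells 226 (217 to 236) CPM. B cell-like cells had 99.9 (76.3 to 129) CPM, and Siglecf-high granulocytes 93.8 (78.7 to 111) CPM with an overlapping interval. NK and T cell-like cells were at 5.84 and 2.65 CPM, and innate lymphoid cell-like cells held 0 UMIs.

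Fcer1g, the shared gamma chain, was the most abundant member in the phagocyte, NK and innate lymphoid classes. Its levels were 4342 (4290.5 to 4394) CPM in neutrophil-like cells, 3802 (3702 to 3904) in Siglecf-high granulocytes and 3067 (3048 to 3085) in monocyte/Mφ-like cells. NK cell-like cells at 2635 (2497 to 2779) CPM and innate lymphoid cell-like cells at 1749 (1605 to 1902) CPM lay above dendritic cell-like cells at 1206 (1184 to 1228) CPM. T cell-like cells at 17.9 (11.8 to 25.98) CPM and B cell-like cells at 9.99 (3.67 to 21.8) CPM were lowest, with overlapping intervals. In the NK cluster, 45 cells with at least 2 UMIs of Cd3 genes held Fcer1g at 1706 (1569 to 1852) CPM and Fcgr3 at 26.9 (12.3 to 51.1) CPM. Mast cell or basophil-like cells, whose IgE receptor also signals through this chain, numbered 5 and all came from CCR2 KO libraries. Each of the 5 held Fcgr3 and Fcer1g UMIs (24 of Fcgr3 in all) and 0 of Fcgr4.

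**Figure D1:**
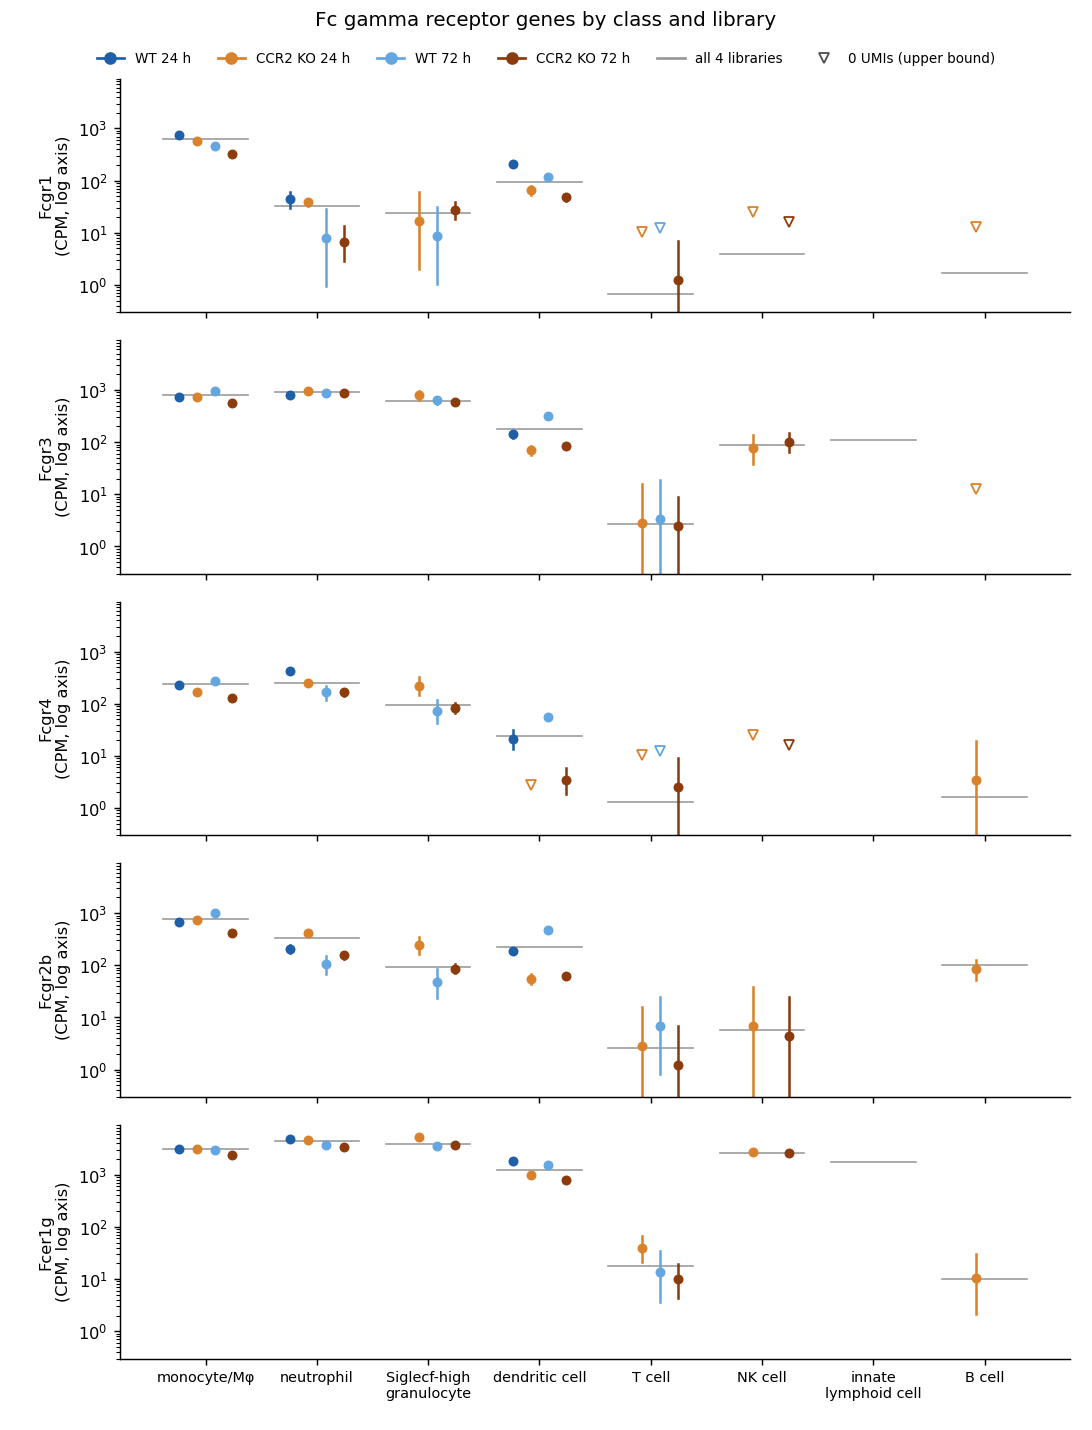
Levels of the 5 genes in each class in CPM (log axis), with 1 point for each library holding at least 20 cells of the class, exact 95% intervals as bars, the level over all libraries as a grey line, and a triangle at the upper bound where a library held 0 UMIs. Fcgr1 is highest in monocyte/Mφ-like cells, Fcgr3 and Fcer1g are high in monocyte/Mφ-like cells and granulocytes, and Fcgr2b reaches from B cell-like to monocyte/Mφ-like cells.

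Shares of cells were compared after each cell was thinned to 1000 UMIs, because deeper cells show more genes, and cells with fewer were not used (10, 5, 11 and 17 of the class that follows, by library). In monocyte/Mφ-like cells, Fcgr1 then had a UMI in 47.4% (44.6 to 50.2) of cells in WT at 24 h, 37.1% (30.6 to 44.1) in CCR2 KO at 24 h, 32.5% (29.2 to 35.9) in WT at 72 h and 16.1% (9.98 to 23.997) in CCR2 KO at 72 h (exact binomial intervals). Before thinning these shares were 94.4%, 81.4%, 87.2% and 61.5%, at median depths of 14570.5, 15791, 13298.5 and 11158 UMIs. The order of the libraries was the same as that of the Fcgr1 level. As a background from free RNA, 0 of 186 T cell-like cells (median 7163 UMIs before thinning) had a thinned Fcgr1 or Fcgr3 UMI, which allows a share of up to 1.61%. Fcgr2b had a UMI in 13.6% (6.43 to 24.3) of B cell-like cells and Fcgr3 in 8.75% (3.59 to 17.2) of NK cell-like cells, both above that limit.

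Activating and inhibitory receptor RNA were often seen in the same monocyte/Mφ-like cell. After thinning, UMIs of at least 1 activating receptor and of Fcgr2b occurred together in 36.4% (33.8 to 39.2) of cells in WT at 24 h and in 45.3% (41.8 to 48.9) in WT at 72 h. In CCR2 KO this share was 31.4% (25.2 to 38.2) at 24 h and 17.8% (11.4 to 25.9) at 72 h. Cells with Fcgr2b alone made up 10.6%, 10.95%, 13.7% and 16.1% (WT 24 h, CCR2 KO 24 h, WT 72 h, CCR2 KO 72 h). The last share had an interval of 9.98 to 23.997, which reached over the shares of the other libraries. Co-detection was lower in neutrophil-like cells, at 10.8% (7.40 to 15.05) in WT at 24 h, 19.4% (17.2 to 21.7) in CCR2 KO at 24 h, 4.65% (1.28 to 11.5) in WT at 72 h and 8.73% (5.42 to 13.2) in CCR2 KO at 72 h.

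**Figure D2:**
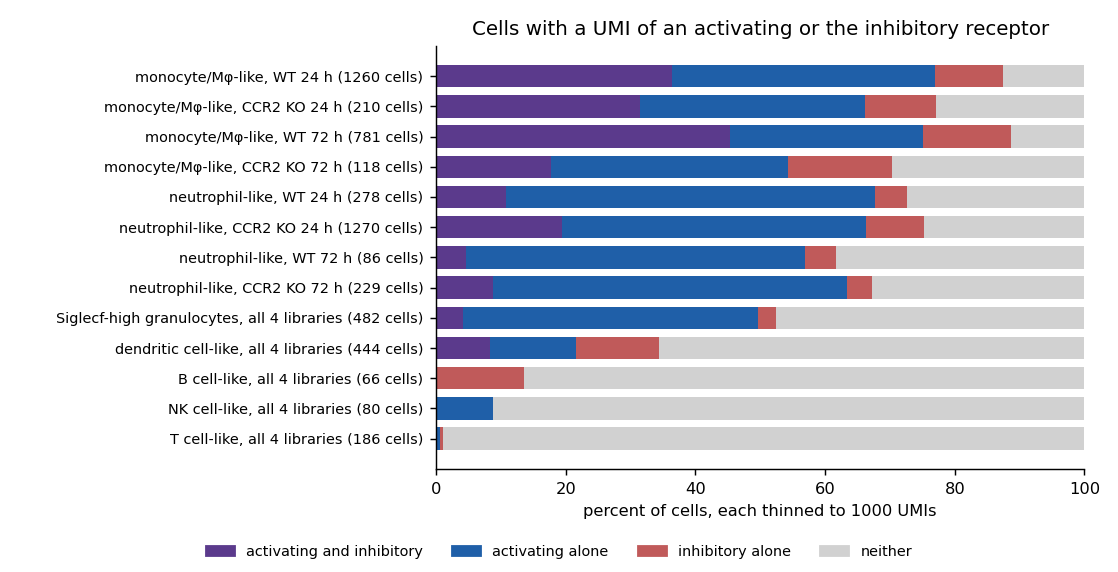
Shares of cells (percent, after thinning to 1000 UMIs) with UMIs of activating receptors and Fcgr2b together, of either alone or of neither, by class and library. Cells with both are most frequent in monocyte/Mφ-like cells of WT at 72 h, and cells with neither are more frequent in the CCR2 KO than in the WT monocyte/Mφ-like cells at both times.

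The class that held the receptor RNA differed between WT and CCR2 KO libraries. Monocyte/Mφ-like cells made up 75.9% of cells in WT at 24 h and 60.2% at 72 h, and 12.2% and 12.96% in CCR2 KO. They held 97.96% of all Fcgr1 UMIs in WT at 24 h, 87.2% in CCR2 KO at 24 h, 85.2% in WT at 72 h and 66.6% in CCR2 KO at 72 h. For Fcgr2b the shares were 97.1%, 58.99%, 79.6% and 54.8% in the same order. The shift was wider for the receptors that granulocytes also carry. At 24 h monocyte/Mφ-like cells held 94.6% of Fcgr3 UMIs in WT against 38.1% in CCR2 KO, where neutrophil-like cells held 57.3%. At 72 h they held 80.6% in WT against 32.2% in CCR2 KO, where neutrophil-like cells held 31.6% and Siglecf-high granulocytes 19.1%. In CCR2 KO at 24 h neutrophil-like cells held 60.7% of Fcgr4 UMIs. Neutrophil-like cells and Siglecf-high granulocytes together were thus the larger source of Fcgr3 RNA in both CCR2 KO libraries. In CCR2 KO at 72 h, 22.5% of Fcgr4 UMIs lay in cells set aside, and among the 12 of these from monocyte/Mφ-like clusters 1 cell held 95 of 156 Fcgr4 UMIs.

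**Figure D3:**
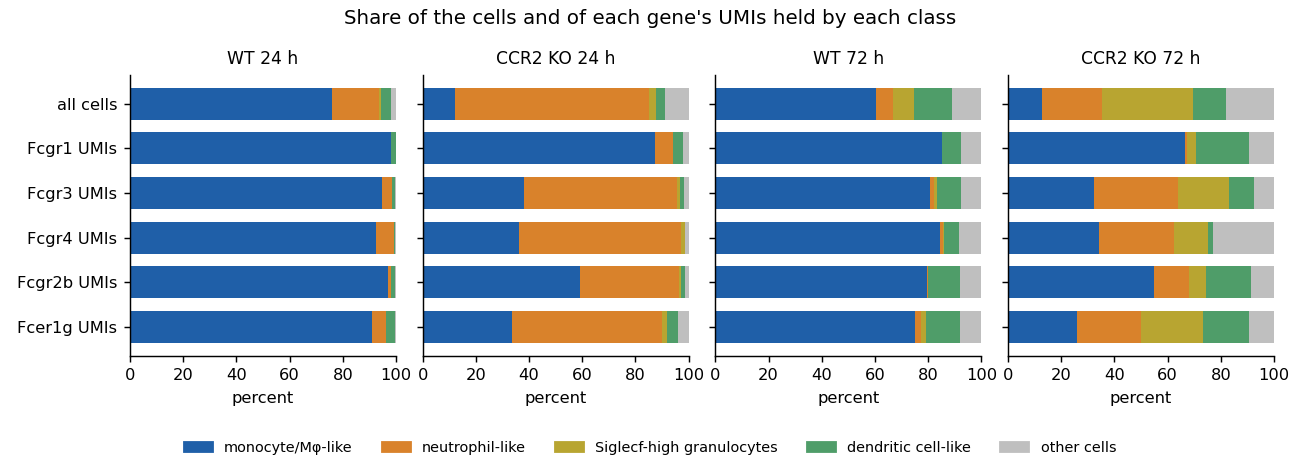
Share of each gene's UMIs (percent) that came from each class, 1 bar for each library and gene. Monocyte/Mφ-like cells supply most UMIs of all 5 genes in both WT libraries, while in the CCR2 KO libraries granulocytes together supply more Fcgr3 UMIs than monocyte/Mφ-like cells.

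Summed over all cells, both Fcgr1 and Fcgr2b were lower in CCR2 KO than in WT. The log2 ratio of CCR2 KO to WT for Fcgr1 was -1.64 (-1.70 to -1.57) at 24 h and -1.91 (-2.01 to -1.81) at 72 h, and for Fcgr2b -0.56 (-0.61 to -0.51) and -2.53 (-2.61 to -2.45). Class sizes and levels within a class both enter these sums, and a sorted, pooled library gives shares of cells, not cell numbers in the tissue.

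The balance of activating to inhibitory RNA was taken as the UMIs of Fcgr1, Fcgr3 and Fcgr4 together per UMI of Fcgr2b. In monocyte/Mφ-like cells it was 2.50 (2.45 to 2.56) in WT at 24 h, 1.97 (1.88 to 2.07) in CCR2 KO at 24 h, 1.65 (1.61 to 1.69) in WT at 72 h and 2.45 (2.25 to 2.67) in CCR2 KO at 72 h. In neutrophil-like cells it was 6.25 (5.26 to 7.48), 3.03 (2.87 to 3.21), 9.92 (6.62 to 15.5) and 6.70 (5.73 to 7.87) in the same order. Every neutrophil-like value lay above every monocyte/Mφ-like value. Siglecf-high granulocytes had 4.13 (2.76 to 6.38) in CCR2 KO at 24 h, 15 (8.17 to 30.6) in WT at 72 h and 7.90 (6.36 to 9.91) in CCR2 KO at 72 h. Dendritic cell-like cells had 2.01 (1.70 to 2.38), 2.44 (1.86 to 3.24), 1.04 (0.971 to 1.11) and 2.13 (1.82 to 2.49), so at 72 h in WT they held nearly as much Fcgr2b as activating receptor RNA. Over all cells together the ratio was 2.54, 2.41, 1.59 and 3.45.

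**Figure D4:**
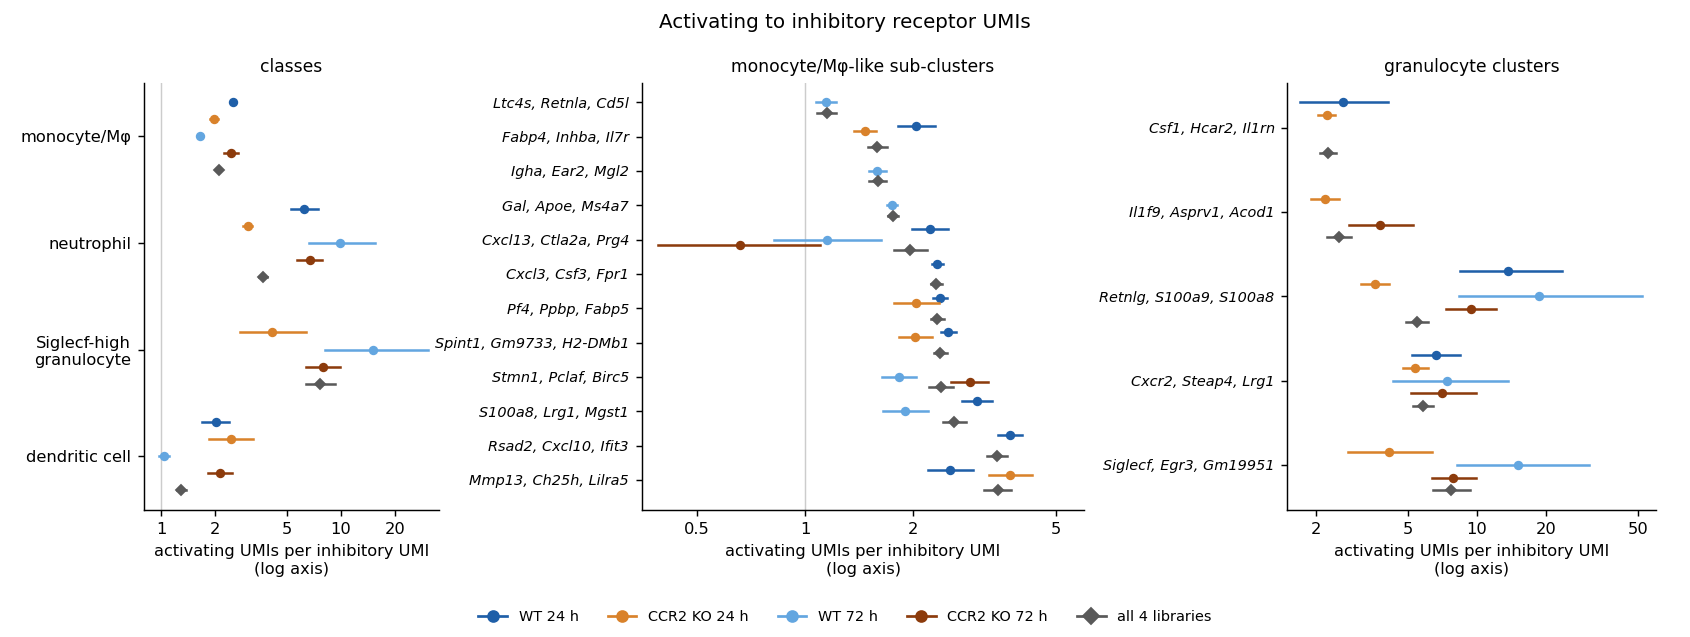
Activating receptor UMIs per Fcgr2b UMI (log axis) in 4 classes, in monocyte/Mφ-like sub-clusters of at least 50 cells and in granulocyte clusters, with exact 95% intervals as bars, coloured points for libraries and grey diamonds for all libraries together. The sub-clusters run from 1.15 to 3.44 and the granulocyte clusters from 2.26 to 7.70.

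Within the monocyte/Mφ-like class the members varied by different amounts. Among 12 sub-clusters of at least 50 cells, pooled over libraries, Fcgr1 ran over 4.83-fold, from 252 (219 to 288) CPM in the sub-cluster led by Cxcl13 to 1216 (1165 to 1268) CPM in the one led by Rsad2, Cxcl10 and Ifit3, which are interferon-induced genes. Fcgr4 was also highest in the latter, at 386 (358 to 416) CPM, against 128 (113 to 144) CPM in the sub-cluster led by Fabp4 and Inhba. Fcgr2b ran from 465 (429.9 to 502) CPM where Mmp13 and Ch25h led to 1114 (1085 to 1143) CPM where Gal, Apoe and Ms4a7 led. That last sub-cluster also held the highest Fcgr3, at 1072 (1044 to 1100.5) CPM, against 605 (584 to 626) CPM in the sub-cluster led by Pf4. Fcer1g varied least, from 2253 (2153 to 2358) to 3519 (3432 to 3607) CPM. The ratio of activating to inhibitory UMIs was lowest, at 1.15 (1.08 to 1.22), in the sub-cluster led by Ltc4s, Retnla and Cd5l, of whose 122 cells 120 came from WT at 72 h. It was highest, at 3.44 (3.15 to 3.76), where Mmp13 led and at 3.42 (3.21 to 3.66) where Rsad2 led, and these intervals overlapped.

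The libraries drew on different sub-clusters. In WT at 24 h the largest were those led by Cxcl3 (28.3% of the class) and Pf4 (24.2%), and in CCR2 KO at 24 h those led by Fabp4 (33.5%) and Mmp13 (21.4%). At 72 h in WT the one led by Gal, Apoe and Ms4a7 held 48.2%. In CCR2 KO at 72 h the sub-cluster led by Stmn1, Pclaf and Birc5, genes of dividing cells, held 48.1% (65 cells), and the one led by Cxcl13 held 25.9% (35 cells). The part of this makeup in the differences between libraries was not tested.

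At 24 h, WT and CCR2 KO monocyte/Mφ-like cells were compared to show the receptors in the cells that the CCR2-deficient muscularis still held. None of the 5 genes differed by 2-fold. Fcgr1 stood at 749 (737 to 762) CPM in WT against 567 (543 to 592) in CCR2 KO, a log2 ratio of -0.40 (-0.47 to -0.33). Fcgr4 stood at 233 (227 to 240.4) and 169 (156 to 183) CPM, a log2 ratio of -0.46 (-0.59 to -0.34). Both values were lower in the CCR2 KO library, but that of Fcgr4 turned to 0.061 when cells were thinned to 1000 UMIs, where the share of cells with an Fcgr4 UMI was 18.6% (16.5 to 20.8) in WT against 18.6% (13.6 to 24.5) in CCR2 KO. Fcgr3 was level at 742 (729 to 754) and 741 (713 to 770.4) CPM, with a log2 ratio of -0.00030 (-0.061 to 0.060). Fcgr2b was 689 (677 to 701) CPM in WT against 749.6 (721 to 779) in CCR2 KO, a log2 ratio of 0.12 (0.062 to 0.18) that changed sign to -0.0031 when libraries were scaled by trimmed means (TMM) in place of totals. Fcer1g was 3171 (3146 to 3197) and 3124 (3066 to 3182) CPM, and the interval of its log2 ratio, -0.022 (-0.051 to 0.0073), held 0. Of all genes of at least 20 CPM in either library, 4.1% differed by 2-fold or more, with a median log2 ratio of -0.071, beside 0 of 5 members. TMM scaling shifted all log2 ratios of this class by -0.13, and those of the 3 comparisons that follow by -0.19 (genotypes at 72 h), -0.17 (time in WT) and -0.23 (time in CCR2 KO).

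The ratio of activating to inhibitory UMIs at 24 h was lower in CCR2 KO, with a log2 ratio of ratios of -0.34 (-0.42 to -0.27). Counting Fcgr3 alone as activating gave -0.12. Within sub-clusters the direction was not uniform. Where Fabp4 led, the ratio was 2.04 (1.81 to 2.30) in WT against 1.47 (1.37 to 1.58) in CCR2 KO. Where Mmp13 led, it was 2.54 (2.20 to 2.94) in WT against 3.72 (3.25 to 4.27) in CCR2 KO, the opposite order. Where Pf4 led, it was 2.38 (2.28 to 2.48) and 2.04 (1.77 to 2.36), with overlapping intervals, and where Spint1 led 2.51 (2.39 to 2.63) and 2.03 (1.82 to 2.26).

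At 72 h all 5 genes were lower in CCR2 KO monocyte/Mφ-like cells, Fcgr2b and Fcgr4 by more than 2-fold, though Fcgr1 turned to higher without the sub-clusters led by Stmn1 and Cxcl13. Fcgr2b stood at 1023 (1004 to 1042) CPM in WT against 414 (386 to 445) in CCR2 KO, a log2 ratio of -1.30 (-1.41 to -1.20). Fcgr4 stood at 274 (264 to 284) and 128 (112 to 145) CPM, a log2 ratio of -1.10 (-1.30 to -0.91). The intervals of these log2 ratios overlapped, and both rest on 135 CCR2 KO cells against 792 WT cells. Fcgr3 was 951 (933 to 970.0) and 562 (528 to 597) CPM, a log2 ratio of -0.76 (-0.85 to -0.67). Fcgr1 was 461 (448 to 474) and 325 (299 to 352) CPM, a log2 ratio of -0.50 (-0.63 to -0.38). Fcer1g was 2982 (2949 to 3014) and 2372 (2303 to 2443) CPM, a log2 ratio of -0.33 (-0.38 to -0.28). Of all genes at level, 8.82% differed by 2-fold or more and the median log2 ratio was 0.15, beside 2 of 5 members past 2-fold and a median of -0.76 over the members.

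The ratio of activating to inhibitory UMIs at 72 h was higher in CCR2 KO, with a log2 ratio of ratios of 0.57 (0.44 to 0.70). The 18 monocyte/macrophage markers from which the class was named moved with these levels and summed to 37194 CPM in WT at 72 h and 18988 in CCR2 KO, beside 26112 and 25651 at 24 h. Their part in the receptor levels was not tested. In the dividing sub-cluster led by Stmn1, Fcgr2b was 775 (709 to 846) CPM in WT against 321 (289.5 to 356) in CCR2 KO, and the ratio was 1.82 (1.63 to 2.04) and 2.87 (2.55 to 3.24). Monocyte/macrophage markers in that Stmn1 sub-cluster summed to 28892 and 15614 CPM. Without the sub-clusters led by Stmn1 and Cxcl13, an alternative chosen after the data were seen, the log2 ratios were -0.82 for Fcgr2b, which lost the 2-fold, and 0.11 for Fcgr1, which turned its direction. For Fcgr4 the 2-fold was also lost when cells were gated singly on markers (-0.77), thinned (-0.76), clustered at resolution 2 (-0.93) or kept although of mixed lineage (-0.56). It was larger with at most 5% mitochondrial UMIs, at -1.91 for Fcgr4 beside -1.17 for Fcgr2b, and as a mean of single cells, at -1.42 beside -1.35.

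From 24 h to 72 h in WT, monocyte/Mφ-like cells held less Fcgr1 and more of the other 3 receptors. Fcgr1 differed by a log2 ratio of -0.70 (-0.75 to -0.66) (72 h over 24 h). The ratios were 0.36 (0.32 to 0.40) for Fcgr3, 0.23 (0.16 to 0.30) for Fcgr4 and 0.57 (0.53 to 0.61) for Fcgr2b. Fcer1g was nearly level at -0.089 (-0.11 to -0.070). No member passed 2-fold, while 14.1% of all genes did, around a median of -0.052. The ratio of activating to inhibitory UMIs was lower at 72 h, with a log2 ratio of ratios of -0.60 (-0.65 to -0.56), and -0.21 with Fcgr3 alone as activating.

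In CCR2 KO all 5 genes were lower at 72 h than at 24 h, except that Fcgr4 gave 0.15 when the cells of mixed lineage were kept. The log2 ratios were -0.80 (-0.94 to -0.67) for Fcgr1, -0.40 (-0.51 to -0.30) for Fcgr3 and -0.40 (-0.63 to -0.18) for Fcgr4. Fcgr2b gave -0.86 (-0.97 to -0.74) and Fcer1g gave -0.40 (-0.45 to -0.35). No member passed 2-fold (2 did with TMM scaling) and 15.2% of all genes did, around a median of 0.15. The activating to inhibitory ratio was 0.31 (0.17 to 0.45) higher on the log2 scale, and 0.043 once cells were thinned. Each library enters 2 of the 4 comparisons, so they are not independent of each other, and the difference between the WT and the CCR2 KO time courses was not tested.

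**Figure D5:**
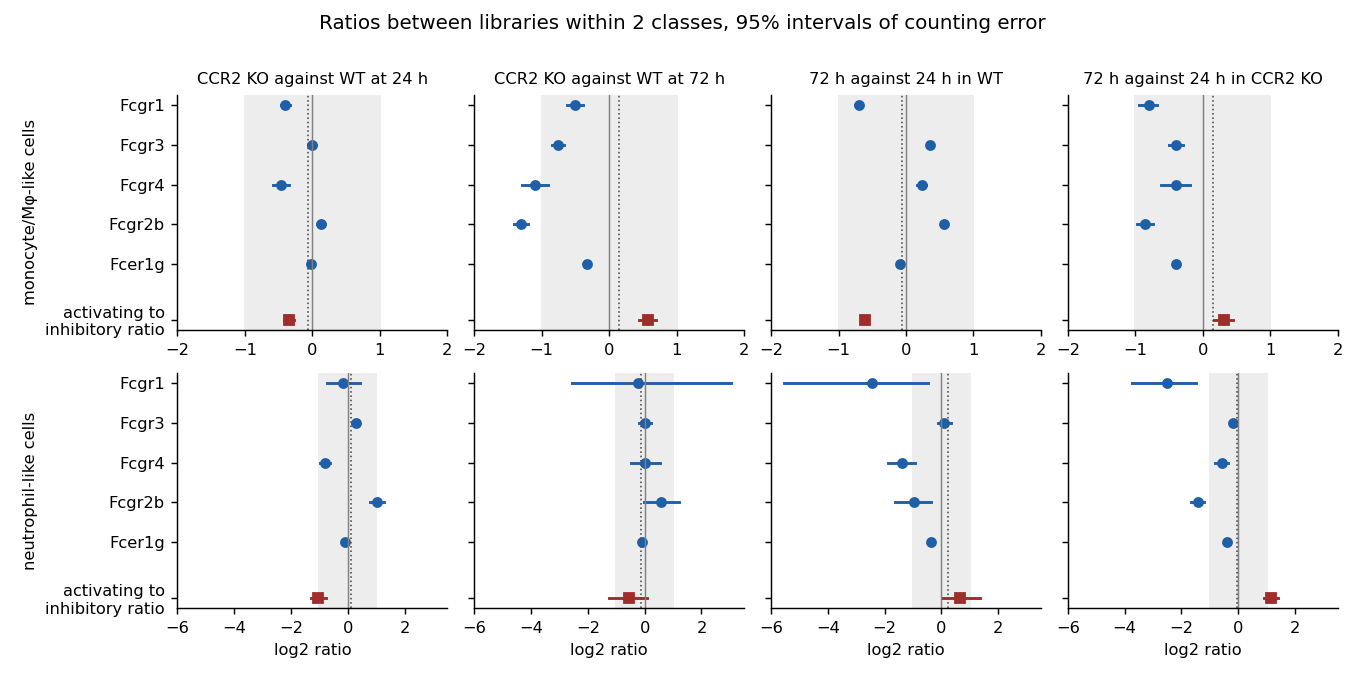
Log2 ratios of the 5 genes and of the activating to inhibitory ratio in the 4 comparisons, in monocyte/Mφ-like and neutrophil-like cells, with exact 95% counting intervals as bars, the grey band within 2-fold and a dotted line at the median of all genes. In monocyte/Mφ-like cells Fcgr2b and Fcgr4 at 72 h (CCR2 KO against WT) leave the band, and in neutrophil-like cells Fcgr2b and the ratio at 24 h, Fcgr1 and Fcgr4 over time in WT, and Fcgr1, Fcgr2b and the ratio over time in CCR2 KO do.

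In neutrophil-like cells at 24 h, Fcgr2b was the member that differed most between genotypes. It stood at 205 (173 to 240.3) CPM in WT against 415 (395 to 435) in CCR2 KO, a log2 ratio of 1.02 (0.78 to 1.27). Fcgr4 stood the other way, at 431 (385 to 482) CPM in WT against 246 (231 to 262) in CCR2 KO, a log2 ratio of -0.81 (-0.99 to -0.62). Together they placed the ratio of activating to inhibitory UMIs lower in CCR2 KO, by a log2 ratio of ratios of -1.04 (-1.32 to -0.78). Fcgr3 was 806 (742 to 873) and 973 (943 to 1004) CPM, a log2 ratio of 0.27 (0.15 to 0.40). Fcer1g was 4856 (4698 to 5019) and 4545 (4479.6 to 4611) CPM, a log2 ratio of -0.10 (-0.15 to -0.044). Fcgr1 was low in both, at 43.7 (29.9 to 61.7) and 38.5 (32.7 to 45.1) CPM, with overlapping intervals. Of 5 members 1 passed 2-fold, beside 8.5% of all genes and a median log2 ratio of 0.10. Fcgr2b did not reach 2-fold when cells were thinned (0.95) or averaged cell by cell (0.94), and over all settings its log2 ratio ran from 0.72 to 1.35. The 10 neutrophil markers summed to 120810 CPM in WT at 24 h and 74196 in CCR2 KO at 24 h, and their part in these differences was not tested.

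Fcgr2b was not even across granulocyte clusters. The cluster led by Csf1, Hcar2 and Il1rn held 561 (524 to 599.6) CPM, the one led by Il1f9 329 (296 to 364), the one led by Retnlg 239.7 (216 to 266), the one led by Cxcr2 222 (202 to 244) and the Siglecf-high cluster 93.8 (78.7 to 111). Fcgr4 was highest where Cxcr2 led, at 324 (299.7 to 349) CPM. The ratio of activating to inhibitory UMIs ran from 2.26 (2.08 to 2.45) where Csf1 led to 7.70 (6.43 to 9.28) in the Siglecf-high cluster. At 24 h the Csf1 cluster held 34 of 297 neutrophil-like cells in WT and 459 of 1286 in CCR2 KO. Within clusters at 24 h, Fcgr2b was 92.3 (54.7 to 146) CPM in WT against 389.9 (345 to 439) in CCR2 KO where Retnlg led. It was 199 (159 to 247) and 253 (226 to 283) CPM where Cxcr2 led, and 452 (307 to 642) and 574 (535 to 615) CPM where Csf1 led. The CCR2 KO value was the higher in all 3 clusters, with intervals apart in the Retnlg cluster and overlapping in the Cxcr2 and Csf1 clusters.

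At 72 h Fcgr3 and Fcgr4 stood at nearly the same levels in neutrophil-like cells of both genotypes, which numbered 88 in WT and 235 in CCR2 KO. Fcgr3 was 862 (751 to 986) and 863 (811 to 918) CPM and Fcgr4 164 (118 to 223) and 166 (143 to 190.4) CPM. Their log2 ratios were 0.0011 (-0.21 to 0.22) and 0.0093 (-0.48 to 0.53), so the counts leave room for differences of the width of these intervals. Fcgr2b was 104 (68.1 to 153) and 155 (133 to 179) CPM, a log2 ratio of 0.57 (-0.030 to 1.22), and Fcer1g gave -0.11 (-0.21 to -0.0041), which turned to 0.028 with TMM scaling (a shift of 0.14). Fcgr1 rested on 2 UMIs in WT and 8 in CCR2 KO and was not compared. None of the 4 members at level passed 2-fold, beside 11.7% of all genes and a median of -0.15. For the activating to inhibitory ratio the log2 ratio of ratios was -0.57 (-1.25 to 0.068), an interval that held 0.

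Over time, Fcgr1 and Fcgr4 were lower at 72 h than at 24 h in WT neutrophil-like cells, and Fcgr1 and Fcgr2b in CCR2 KO. In WT the log2 ratio of Fcgr4 was -1.39 (-1.90 to -0.92) and that of Fcgr2b -0.97 (-1.63 to -0.37). Fcgr1 went from 32 UMIs to 2, a log2 ratio of -2.45 (-5.55 to -0.47). Fcgr3 was level, at 0.10 (-0.13 to 0.33), and Fcer1g gave -0.38 (-0.49 to -0.28). Thus 2 of 5 members passed 2-fold, beside 19.9% of all genes and a median of 0.24. In CCR2 KO the log2 ratios were -2.51 (-3.75 to -1.498) for Fcgr1 (157 UMIs to 8) and -1.42 (-1.65 to -1.20) for Fcgr2b. Fcgr4 gave -0.57 (-0.80 to -0.35), Fcgr3 -0.17 (-0.27 to -0.073) and Fcer1g -0.40 (-0.44 to -0.35). Again 2 of 5 passed 2-fold, beside 10.9% of all genes and a median of -0.040. The ratio of activating to inhibitory UMIs was higher at 72 h in both genotypes, by 0.67 (0.020 to 1.36) in WT against 1.14 (0.90 to 1.39) in CCR2 KO on the log2 scale.

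Of 516 Siglecf-high granulocytes, 353 came from CCR2 KO at 72 h. In CCR2 KO this class held less Fcgr4, Fcgr2b, Fcgr3 and Fcer1g at 72 h than at 24 h. In CCR2 KO, Fcgr4 was 223 (147 to 325) CPM at 24 h and 82.1 (65.8 to 101) at 72 h, a log2 ratio of -1.44 (-2.08 to -0.77). Fcgr2b was 248 (167 to 354) and 86.7 (70.02 to 106) CPM, a log2 ratio of -1.52 (-2.12 to -0.87). Fcgr3 gave -0.45 (-0.76 to -0.12) and Fcer1g -0.51 (-0.63 to -0.39). The 24 h values come from 49 cells, and the share of all genes past 2-fold was not computed for this class. At 72 h the genotypes had wide, overlapping intervals for Fcgr2b, 47.9 (23.9 to 85.7) CPM in WT against 86.7 (70.02 to 106) in CCR2 KO.

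In dendritic cell-like cells at 72 h, all 5 genes were lower in CCR2 KO than in WT. The share of all genes past 2-fold was not computed for this class. Fcgr2b was 476 (454 to 499.6) CPM in WT against 63.5 (55.7 to 72.1) in CCR2 KO, a log2 ratio of -2.91 (-3.11 to -2.71). Fcgr3 was 322 (303 to 341) and 83.4 (74.4 to 93.2) CPM, a log2 ratio of -1.95 (-2.13 to -1.77), and Fcgr4 was 55.6 (48.1 to 63.96) and 3.48 (1.86 to 5.96) CPM. Fcgr1 was 117 (106 to 129) and 48.2 (41.5 to 55.8) CPM, a log2 ratio of -1.28 (-1.54 to -1.03). Fcer1g gave -0.97 (-1.04 to -0.91). At 24 h the log2 ratios were -1.69 (-2.06 to -1.33) for Fcgr1 and -1.03 (-1.41 to -0.66) for Fcgr3. Fcgr2b gave -1.75 (-2.15 to -1.36) and Fcer1g -0.89 (-0.99 to -0.79) at that time. Over the whole class, monocyte/macrophage markers were also lower in CCR2 KO at each time. They summed to 5728, 3012, 9838 and 2044 CPM (WT 24 h, CCR2 KO 24 h, WT 72 h, CCR2 KO 72 h). Among cells gated by Cd209a, a gene of type 2 conventional dendritic cells and of monocyte-derived cells, they summed to 4761 CPM in WT at 24 h, 3024 in CCR2 KO at 24 h, 7835 in WT at 72 h and 1954 in CCR2 KO at 72 h. Their part in the receptor levels was not tested. Fcgr2b in these cells was 186 (152 to 224), 63.9 (46.3 to 86.1), 489 (458 to 521) and 99.5 (81.997 to 119.6) CPM in that order. In dendritic cell-like cells that met no gate, WT at 72 h held monocyte/macrophage markers at 17950.2 CPM and Fcgr2b at 679 (626 to 734) CPM.

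The gamma chain differed between dendritic cell gates. Cells gated by Xcr1 or Clec9a, genes of cross-presenting type 1 dendritic cells, held Fcer1g at 263 (242 to 284) CPM, against 1608 (1571 to 1647) CPM in Cd209a cells. The 25 cells gated by Ccr7 or Fscn1, genes of migratory dendritic cells, held Fcgr1 and Fcgr4 at 0 UMIs and Fcgr2b at 95.9 (70.7 to 127) CPM. Their ratio of activating to inhibitory UMIs was 0.146 (0.0557 to 0.324).

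The genes around the receptors were read from lists in monocyte/Mφ-like cells. Of the kinases and adaptors that carry the ITAM signal, 16 of 17 were at level. From 24 h to 72 h in WT, 1 was higher by 2-fold (Blnk, an adaptor below Syk, log2 ratio 2.79, 2.57 to 3.03). In CCR2 KO over time 2 were higher, Blnk (2.06, 1.66 to 2.47) and Pik3cd, a phosphoinositide 3-kinase subunit (1.44, 1.17 to 1.71), and 0 were lower. At 24 h Blnk alone was past 2-fold between genotypes (1.07, 0.67 to 1.46), and at 72 h 0 of 16 were. The list medians were -0.066, 0.073, -0.045 and 0.18 (genotypes at 24 h, genotypes at 72 h, time in WT, time in CCR2 KO), beside -0.071, 0.15, -0.052 and 0.15 over all genes. The inhibitory phosphatases and adaptors that act with Fcgr2b held 9 of 9 genes at level and 0 past 2-fold in each of the 4 comparisons, with list medians of -0.20, -0.073, 0.32 and 0.22 in the same order. Ptpn6, which encodes SHP-1, had log2 ratios of -0.32 (-0.42 to -0.22) at 24 h and -0.075 (-0.21 to 0.060) at 72 h between genotypes, and Dok2, an adaptor that binds Ras GTPase-activating protein, -0.33 (-0.44 to -0.22) and 0.017 (-0.15 to 0.18).

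Of 11 other Fc-binding receptors in the tables, 2 were at level in monocyte/Mφ-like cells. Of the rest, Fcer1a, Ms4a2, Fcer2a and Pigr held 0 UMIs, and Trim21, an antibody receptor of the cytosol, was the highest at 13.7 CPM. Fcgrt, the neonatal receptor that recycles IgG, went from 42.7 to 373 CPM between 24 h and 72 h in WT, a log2 ratio of 3.12 (3.02 to 3.23), and gave 2.02 (1.76 to 2.28) in CCR2 KO. Fcrls, an Fc receptor-like scavenger receptor, gave 3.92 (3.74 to 4.10) and 1.81 (1.51 to 2.11), and 1.53 (1.23 to 1.82) in CCR2 KO against WT at 24 h. Both were higher at 72 h in either genotype.

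Of 7 receptors that also pair with the gamma chain, 4 were at level. All 4 were lower at 72 h in each genotype, 3 of them by 2-fold or more. Clec4e (Mincle), which binds mycobacterial glycolipid, gave -1.89 (-2.004 to -1.79) in WT against -1.66 (-1.93 to -1.40) in CCR2 KO. Its partner Clec4d gave -1.56 (-1.69 to -1.43) and -2.05 (-2.36 to -1.76). The other genes lower by 2-fold were Pira2 in WT (-1.05, -1.21 to -0.90) and Clec4n (Dectin-2), a receptor for fungal mannans, in CCR2 KO (-1.77, -1.89 to -1.64). At 24 h Clec4n was higher in CCR2 KO than in WT, at 1.24 (1.19 to 1.30). The list medians over time were -1.30 in WT against -1.71 in CCR2 KO, while Fcer1g itself gave -0.089 and -0.40. Among other signalling chains, Hcst, the DAP10 adaptor, which has no ITAM, was lower in CCR2 KO at 24 h (-1.09, -1.53 to -0.68). It was higher at 72 h than at 24 h in CCR2 KO (1.17, 0.61 to 1.74).

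Of 10 genes known to regulate Fc gamma receptor genes, all 10 were at level. In WT over time 3 were higher by 2-fold, the receptor genes Ifngr1 (1.04, 0.98 to 1.10), Il10ra (1.38, 1.27 to 1.48) and Tgfbr1 (1.28, 1.14 to 1.42), for interferon gamma, interleukin 10 and TGF beta. Of all genes, 14.1% passed 2-fold in either direction in that comparison. At 24 h Tgfbr1 was also higher in CCR2 KO (1.31, 1.12 to 1.501), and in the other comparisons 0 of 10 passed. Medians of the 10 genes were -0.31, -0.24, 0.052 and 0.25 (genotypes at 24 h, genotypes at 72 h, time in WT, time in CCR2 KO), beside -0.071, 0.15, -0.052 and 0.15 over all genes. Immunoglobulin heavy chain genes are made by B lineage cells. Those of IgG, the ligand, were near 0 in monocyte/Mφ-like cells pooled over libraries (Ighg1 0.028, Ighg2b 0.057 and Ighg3 0 CPM). Igha and Ighm encode the heavy chains of IgA and IgM, which are not the ligands of these receptors. The source of their UMIs here was not tested. Igha was 0.838 CPM at 24 h and 38.1 CPM at 72 h in WT, and Ighm gave log2 ratios of 2.68 (2.54 to 2.82) in WT against 2.62 (2.24 to 3.02) in CCR2 KO over time. Plasma cell markers in the class summed to 7.22 CPM, with Mzb1 at 0.

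Genes with a pattern most like each member were sought over 20 class and library points of at least 30 cells, by Pearson correlation of log2(CPM + 10). The points share libraries, and the correlations are a description. Fcgr1 was most like Dab2 (0.955), an endocytic adaptor, Zeb2os (0.949) and P2ry6 (0.946), a UDP receptor. Fcgr3 was most like Itgam (0.973), the CD11b integrin chain, Fndc3b and Atp6v1b2. Fcgr4 was most like Fgd4 (0.981), Slc11a1, a metal transporter of phagosomes, and C5ar1, the receptor of complement C5a. Fcgr2b was most like Csf1r (0.929), the receptor that sustains macrophages, and Tns3. Fcer1g was most like Tyrobp (0.985), the other main ITAM adaptor of myeloid and NK cells, followed by Fcgr3 (0.948) and Itgam (0.942).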

How the data were processed

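Single CD45+ cells were measured by droplet-based 3′ RNA sequencing in 4 libraries. The deposited values are raw UMI counts per gene and cell. Per the labels and the study's methods, the authors aligned and counted reads with Cell Ranger 3.0.2 against mouse GRCm38/mm10 and kept cells with at least 200 genes and at most 10% mitochondrial UMIs with Seurat, filters which all 5811 deposited cells met. The annotation release is not given in the sources used here, and no row lacked a gene name. Samples were grouped by genotype and time from the labels, and 0 columns were left unmatched. Reads from similar stretches of Fcgr2b, Fcgr3 and Fcgr4 could be lost or split in counting, so levels of these paralogues are uncertain to that degree. The antisense gene Gm38204 overlaps Fcgr2b, and Mir6546 and Gm26110 lie within Fcgr3 and Fcgr4.

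The members and gene lists were chosen with earlier results of these data known. Analyses used Python 3.11.15, numpy 2.4.6, scipy 1.17.1, pandas 2.3.3, scanpy 1.11.5 and leidenalg 0.10.2. After removal of 12 cells with non-immune markers, counts scaled to 10000 per cell were clustered together (2000 variable genes without the receptor genes, their pathway lists and Ccr2, 30 principal components, 20 neighbours, Leiden resolution 1), and clusters were named from marker lists. The gate of 3 UMIs that set aside mixed-lineage cells (2 UMIs of Cd3 genes in NK and innate lymphoid clusters) and the thresholds of naming were chosen after the data were seen. Scrublet called 11 of 5799 cells, too few to have worked as a doublet caller, so doublets were treated only by that gate. The gate had no rule for neutrophil markers in monocyte/Mφ-like cells. A sub-cluster of 21 cells led by S100a9, with neutrophil markers at 22703 CPM, stayed in that class. UMIs were summed over the cells of a class and library. Levels carry exact Poisson 95% intervals, ratios exact conditional binomial (Clopper-Pearson) ones, and a count of 0 is given the limit of 3 counts. A gene was at level with at least 20 CPM in either library, and past 2-fold with a log2 ratio of at least 1 in size. Log2 ratios are of CPM with no pseudocount, and ratios over all genes used 0.5 UMIs. No p-value was computed, since each group holds 1 library. The ratio code was tested on simulated counts with known changes. All 5 members were named in every class. Pathway genes were named when past 2-fold in monocyte/Mφ-like cells, or else the 2 with the highest level, and like genes as the 3 with the highest correlation, except that 1 gene of each kind is not reported here. Alternatives were a gate per cell, resolution 2, each library clustered alone, at most 5% mitochondrial UMIs, thinning to 1000 UMIs, means of single-cell CPM, subtraction of the T cell-like level, removal of Scrublet calls, other definitions of activating, no minimum level, a pseudocount of 5 CPM, and TMM factors (edgeR 4.0.16, R 4.3.3). After the data were seen, 2 more were added: keeping mixed-lineage cells, and leaving out the sub-clusters led by Stmn1 and Cxcl13.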

Additional observations from a re-analysis of the deposited data

Results flagged for a closer look

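In monocyte/Mφ-like cells, 3 receptors and their balance stood on opposite sides of their 24 h level at 72 h in WT and in CCR2 KO. Fcgr2b was higher at 72 h in WT, with a log2 ratio of 0.57, and lower in CCR2 KO, at -0.86, a difference of -1.43 (CCR2 KO minus WT). Fcgr3 gave 0.36 in WT and -0.40 in CCR2 KO, a difference of -0.76. Fcgr4 gave 0.23 and -0.40, a difference of -0.63. Its opposite directions depended on the processing: the CCR2 KO value was 0.15 with mixed-lineage cells kept, and the WT value 0.063 with TMM. The activating to inhibitory ratio ran the other way, at -0.60 in WT and 0.31 in CCR2 KO, a difference of 0.92. As a mean of single cells its CCR2 KO value was 0.028. Each direction rests on 1 library at each time, and whether the genotypes differ in these time courses was not tested.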

How the results depend on the processing

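Of 100 alternative values of the log2 ratio of ratios (activating to inhibitory), 77 moved by less than counting error and 23 by more, and all kept their direction. Of the 77, 8 were with TMM factors, which cancel in this ratio and could not move it. Another 8 each came from removal of Scrublet calls and subtraction of the T cell-like level, which took away few UMIs. Of the members' log2 ratios 316 stayed within counting error, 96 moved and 6 changed sign among those whose main interval fixed the sign. Removal of Scrublet calls and subtraction of the T cell-like level gave 40 each of the 316. Sign changes of ratios whose main interval reached over no change were not counted apart. For example, Fcgr3 in monocyte/Mφ-like cells (CCR2 KO against WT at 24 h) ran from -0.13 to 0.11. In monocyte/Mφ-like cells at 24 h (CCR2 KO against WT) the log2 ratio of ratios was -0.12 with Fcgr3 alone as activating, -0.22 with Fcgr3 and Fcgr4, and -0.51 with each library clustered alone. At 72 h it was 0.73 with the gate per cell, 0.39 with at most 5% mitochondrial UMIs, 0.29 thinned, 0.34 as a mean of cells, and 0.43 without the Stmn1 and Cxcl13 sub-clusters. Over time in WT it was -0.21 (Fcgr3 alone), -0.24 (Fcgr3 and Fcgr4), -0.65 (gate), -0.49 (mitochondrial) and -0.54 (thinned). Over time in CCR2 KO it was 0.46 (Fcgr3 alone), 0.45 (Fcgr3 and Fcgr4), 0.47 (clustered alone), 0.043 (thinned), 0.028 (mean of cells) and 0.17 (without those sub-clusters). In neutrophil-like cells it was -0.75 (Fcgr3 alone), -1.37 (gate) and -0.78 (clustered alone) between genotypes at 24 h, and 1.41 (gate) over time in CCR2 KO. The cause of these moves was not tested.

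The count of members past 2-fold in monocyte/Mφ-like cells between genotypes at 72 h was 1, not 2, with the gate per cell, at resolution 2, with mixed-lineage cells kept and without those sub-clusters. Over time in CCR2 KO it was 1, not 0, with the gate, clustering alone, the mitochondrial limit, thinning and means of cells, and 2 with TMM. In neutrophil-like cells at 24 h it was 0, not 1, thinned or as means of cells, and over time in WT it was 1, not 2, with the gate. With no minimum level, 19.6%, 20.4%, 29.9% and 28.1% of genes passed 2-fold in the monocyte/Mφ-like class, compared with 20.3%, 23.6%, 29.9% and 26.6% for neutrophil-like cells (genotypes at 24 h and 72 h, time in WT and in CCR2 KO). Where the main interval fixed the sign, it changed in monocyte/Mφ-like cells at 24 h for Fcgr4 (thinned, 0.061). It also changed there for Fcgr2b (-0.036 as means of cells and -0.0031 with TMM). In the same class, signs changed for Fcgr1 at 72 h (without those sub-clusters, 0.11) and Fcgr4 over time in CCR2 KO (mixed-lineage cells kept, 0.15). In neutrophil-like cells at 72 h the sign of Fcer1g changed (TMM, 0.028). TMM shifted neutrophil-like log2 ratios by -0.0063, 0.14, -0.21 and -0.068 in the same order. It moved the share of genes past 2-fold that were higher from 65.1% to 49.6% between genotypes at 24 h (monocyte/Mφ-like), 68.2% to 48.3% between genotypes at 72 h (monocyte/Mφ-like), 49.9% to 33.02% over time in WT (monocyte/Mφ-like), 69.5% to 46.6% over time in CCR2 KO (monocyte/Mφ-like), 42.9% to 56.95% between genotypes at 72 h (neutrophil-like) and 67.4% to 49.05% over time in WT (neutrophil-like).

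No paired analysis was possible because each group holds 1 library, which also means that no replicate was left out. Rare classes are limited by depth: 88 neutrophil-like cells in WT at 72 h gave 2 UMIs of Fcgr1 and 26 of Fcgr2b.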
